A study of Mus musculus with 7 samples.

Results

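The immediate early genes were examined in RNA of whole, marrow-flushed femora. The mice were females aged 12 weeks on a C57BL/6 background. The 10 genes are Fos, Fosb, Jun, Junb, Egr1, Egr2, Atf3, Nr4a1, Ier2 and Dusp1, taken by symbol from the 27179 genes of the deposited count tables. There were 3 libraries of genotype Dmp1Cre.EfnB2f/f, in which Cre under the Dmp1 promoter targets both floxed alleles of ephrin B2 in late osteoblasts and osteocytes, and 4 libraries of genotype Dmp1Cre, which carry the same Cre without floxed alleles. The libraries are written f/f 1 to f/f 3 and control 1 to control 4, by label and replicate number, and each came from a separate mouse. Whole bone also holds cells in which this Cre is not active. The mice came from 4 parent crosses, and only f/f 3 and control 3 shared one across the genotypes. Libraries f/f 1 and f/f 2 came from the same cross, and so did controls 1 and 2, so that cross and genotype largely coincide. Tests without a block for the cross treat all libraries as independent. The study collected the bones on 2 days, and with 1 mouse of each genotype on day 2, but the labels do not say which libraries these were, so every possible pair was tried as a block.

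Immediate early genes are transcribed within minutes of a stimulus, without new protein synthesis, because the factors that switch them on (SRF with its ETS partners, and CREB) are already bound or ready in the resting cell. Growth factors, hormones, calcium, mechanical load and cell stress all reach them, mostly through MAP kinases, and their short-lived mRNAs then decay quickly. Most encode transcription factors that start the next wave of genes. In bone they are known as early targets of parathyroid hormone and loading, and Fos is required for osteoclasts to form.

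Ephrin B2 itself had higher, not lower, levels in the libraries labelled f/f. Efnb2 had 17.9, 13.1 and 11.8 CPM in f/f 1 to 3 and 8.49, 7.93, 6.44 and 6.36 CPM in controls 1 to 4, where CPM is the read count scaled by TMM-adjusted library size. The groups did not overlap. In edgeR the difference was 0.96 ± 0.21, given here and below as the log2 fold change of f/f over control ± its standard error, with a Benjamini-Hochberg adjusted p of 0.511, and in DESeq2 the adjusted p was 0.0331. The counts do not separate the floxed exon. Whole-bone counts therefore cannot show whether the gene was lost in osteocytes, and f/f stands for the label only. In sorted cells of other, younger mice, the study used PCR of the targeted region. It reported loss of Efnb2 in osteocytes and its retention in other cells. Total counts ran from 17245556 to 22075778 per library, and the 10 immediate early genes took 3993 to 8738 of them.

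RefSeq promoter windows (GRCm38.p6, 250 bases before the start site and 50 after it) were at hand for 8 of the 10 genes, all but Egr1 and Ier2. The core of the cyclic AMP response element, TGACG on either strand, was in a window of 7 of the 8 genes (Fos, Fosb, Junb, Egr2, Atf3, Nr4a1 and Dusp1, not Jun), and in 33.2% of the 11580 tested genes with a window. The full palindrome TGACGTCA was found in Dusp1 (3.28% of tested genes), and it contains the core on both strands. The CArG box, the SRF element, was found in Egr2 (1.6%). The AP-1 element TGANTCA was in 0 of the 8 (6.74%), its longer form TGANNTCA in Dusp1, Egr2 and Jun (11.9%), and the EGR element GCGNGGGCG in Fosb and Nr4a1 (11.5%). In Dusp1 the longer AP-1 form is the CRE palindrome itself. Egr2 has 5 windows, which gives it more places for a match. The windows of 4 genes are shown because each holds more than 1 core, with TGACG cores and the CArG box in capitals. The Fos window is chr12:85473640-85473939 on the plus strand, Egr2 at chr10:67537619-67537918 on the plus strand, Nr4a1 at chr15:101266596-101266895 on the plus strand and Dusp1 at chr17:26508423-26508722 on the minus strand.
Fos: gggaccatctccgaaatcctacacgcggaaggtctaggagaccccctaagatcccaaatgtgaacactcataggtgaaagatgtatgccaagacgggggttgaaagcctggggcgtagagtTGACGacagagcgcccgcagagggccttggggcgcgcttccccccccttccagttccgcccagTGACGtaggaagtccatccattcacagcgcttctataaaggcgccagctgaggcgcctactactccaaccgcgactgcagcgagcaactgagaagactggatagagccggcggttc
Egr2: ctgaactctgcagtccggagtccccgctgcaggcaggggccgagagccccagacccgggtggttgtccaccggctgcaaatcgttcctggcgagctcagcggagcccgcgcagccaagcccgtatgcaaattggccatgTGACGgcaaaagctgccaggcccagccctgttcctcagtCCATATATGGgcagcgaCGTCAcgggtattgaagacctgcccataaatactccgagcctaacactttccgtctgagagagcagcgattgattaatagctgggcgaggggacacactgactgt
Nr4a1: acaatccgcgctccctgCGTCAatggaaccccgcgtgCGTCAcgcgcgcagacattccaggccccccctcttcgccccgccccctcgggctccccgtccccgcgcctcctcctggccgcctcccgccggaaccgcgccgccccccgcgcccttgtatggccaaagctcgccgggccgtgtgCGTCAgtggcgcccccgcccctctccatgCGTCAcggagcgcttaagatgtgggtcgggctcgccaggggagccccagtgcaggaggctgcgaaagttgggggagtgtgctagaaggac
Dusp1: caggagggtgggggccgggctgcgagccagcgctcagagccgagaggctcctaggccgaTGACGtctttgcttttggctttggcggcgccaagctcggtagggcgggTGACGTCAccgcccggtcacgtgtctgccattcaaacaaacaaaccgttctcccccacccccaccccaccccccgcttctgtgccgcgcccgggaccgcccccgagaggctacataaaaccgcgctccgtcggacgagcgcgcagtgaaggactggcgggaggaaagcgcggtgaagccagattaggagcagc
In Fos the cores start at positions -129 and -66, counted from the start site, and in Nr4a1 at -233, -213, -69 and -40. In the Egr2 window the CArG box starts at -72, between cores at -111 and -55. In Dusp1 they start at -191, -143 and -140, the last pair forming the palindrome. A match of letters is not a measured binding site.

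The genes are compact. In the GENCODE M21 annotation, 9 of the 10 had at most 4 exons, against 21.3% of 14151 tested genes with a coding transcript, and Nr4a1 was the exception with 8. Jun, Junb and Ier2 each had 1 exon. The median span was 3852 bases against 22154. The pentamer ATTTA, the DNA form of the AUUUA of AU-rich elements that mark unstable mRNAs, occurred in the 3′ UTR of 9 of the 10 genes, up to 4 times in Fos, Jun and Dusp1, and 0 times in Ier2. The median count was 3 in the 10 genes and 1 in tested genes with a 3′ UTR of like length, so at least 1 copy is common. The median densities were 2.89 and 1.41 per kb of 3′ UTR. The spans of 9 genes overlapped no other gene of the RefSeq table, and that of Egr2 overlapped Gm32255, with which reads could be shared.

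All 10 genes were expressed and passed the filter on low counts. Per length, the mean level over the 7 libraries was highest for Junb (34.8 CPM per kb), Dusp1 (30.5), Fos (27.0), Ier2 (21.4), Nr4a1 (21.0) and Jun (14.5), then Egr1 (5.11), Atf3 (3.15), Fosb (1.30) and Egr2 (0.654). Among the first 6, neighbours in this order could not be separated, since their ranges over the libraries overlapped and the order held in only 3 to 5 of the 7 libraries. Jun lay above Egr1 in all 7 libraries, Egr1 above Atf3 in all 7 and Atf3 above Fosb in all 7. Fosb lay above Egr2 in 5 of 7.

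**Figure D1:**
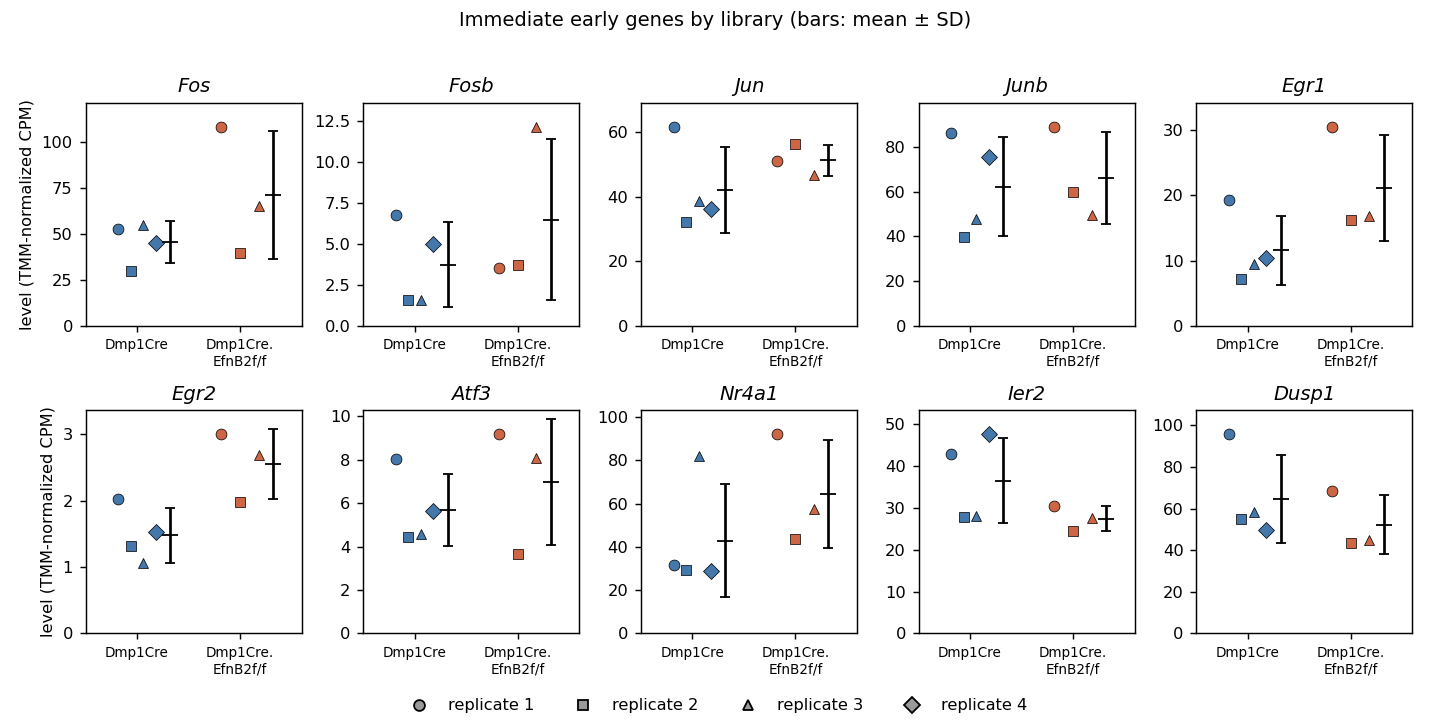
Level of each gene (y axis, TMM-normalized CPM from 0) in the 4 Dmp1Cre and 3 Dmp1Cre.EfnB2f/f libraries (x axis), with the replicate number as the symbol and the mean ± SD as bars. The groups overlap in every panel. In 6 panels the highest point is f/f 1, and in Nr4a1 control 3 (81.8 CPM) lies far above the other controls.

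The comparison of the genotypes gave no immediate early gene past the threshold. Of the 10 genes, 8 had higher and 2 had lower fitted levels in f/f, and 0 had an adjusted p under 0.05 in edgeR's quasi-likelihood test, where 0% of all 15098 genes tested did so. At an unadjusted p under 0.05 there were 2, Egr1 and Egr2, both higher. Over all genes 9.66% reached that p, and 4.63% did so on the higher side. DESeq2, limma-voom and the study's limma pipeline without its quality weights also gave 0 of the 10, and DESeq2 called 0.477% of all genes. The limma pipeline with the weights and without the day called Jun and Egr1, where it called 14.9% of all genes. The study used both the weights and the day, and reported higher and lower genes at a false discovery rate under 0.05. With a block for the day the limma pipeline called 0 to 7 of the 10, over the 12 possible choices of the f/f and the control mouse collected on day 2. The choice that gave 7 was f/f 3 and control 4. It called Fos, Fosb, Jun, Junb, Egr1, Egr2 and Nr4a1, and 32.6% of all genes. Both libraries come last in the order of the samples, but no label gives the day. Each choice that called at most 0.391% of all genes gave 0 of the 10. The median log2 fold change was 0.44 for the 10 genes and 0.01 for all genes tested. The groups overlapped for each of the 10 genes, while 11.3% of all genes had groups that did not overlap, 5.05% with f/f higher. The spread was wide: the standard deviation of log2 levels within the groups had a median of 0.495 over the 10 genes, against 0.307 over all genes.

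AP-1 is a dimer of a Fos and a Jun protein, and Fos is its strongest inducible subunit. In GRCm38.p6 it lies on chromosome 12, from 85473890 to 85477274. Fos had 108, 39.5 and 65.1 CPM in f/f 1 to 3 and 52.7, 29.8, 54.8 and 45.2 CPM in controls 1 to 4. Libraries f/f 1 and f/f 3 were above all controls and f/f 2 was within their range. The difference of 0.64 ± 0.34 (edgeR adjusted p = 0.517, exact two-sided permutation p = 0.286) was 0.20 without f/f 1.

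Fosb, a Fos relative that is also spliced into the short and stable ΔFosB, varied most of the 10 genes. Fosb (chromosome 7, 19302696 to 19310118) had 3.50, 3.73 and 12.1 CPM in f/f and 6.73, 1.597, 1.581 and 4.999 CPM in the controls. The level in f/f 3 stood above the other 6 libraries, the rest of f/f lay between the controls, and the highest library was 7.67 times the lowest. The difference was 0.79 ± 0.63 (edgeR adjusted p = 0.599) with all libraries and -0.05 without f/f 3. Its spread within the groups (0.935 on the log2 scale) was larger than that of 98.9% of genes. The counts, of 27 to 230 reads, do not separate the splice forms.

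The Jun proteins pair with Fos proteins or with each other. Jun (chromosome 4, 95049036 to 95052222) had 51.2, 56.3 and 46.7 CPM in f/f and 61.8, 32.1, 38.9 and 36.3 CPM in the controls. All of f/f lay above controls 2, 3 and 4 and below control 1. The difference was 0.28 ± 0.24 (edgeR adjusted p = 0.616), and without control 1 it was 0.52 (unadjusted p = 0.0128, adjusted p = 0.381). Junb (chromosome 8, 84976909 to 84978748), which often restrains Jun, had 89.1, 60.05 and 49.5 CPM in f/f and 86.1, 39.8, 47.7 and 75.6 CPM in the controls. The groups were mixed, with f/f 1 and control 1 side by side at the top. Junb differed by 0.09 ± 0.31 (edgeR adjusted p = 0.905), and the sign turned negative without f/f 1 (-0.18), control 2 (-0.08) or control 3 (-0.02).

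The zinc finger factors Egr1 and Egr2 had the lowest p of the 10 genes. Egr1, the common early target of SRF, had 30.5, 16.2 and 16.8 CPM in f/f 1 to 3 and 19.3, 7.19, 9.48 and 10.4 CPM in controls 1 to 4. All of f/f lay above controls 2, 3 and 4, and control 1 lay above f/f 2 and f/f 3. Means ± SD were 21.2 ± 8.12 CPM in f/f and 11.6 ± 5.30 CPM in the controls (n = 3 and 4). The difference of 0.87 ± 0.37 had an unadjusted p of 0.0428 and an adjusted p of 0.511 in edgeR, and the exact permutation test gave p = 0.114. It was 0.51 without f/f 1, where the unadjusted p was 0.217, and 1.23 without control 1.

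Egr2 (chromosome 10, 67534469 to 67542188), known best from hindbrain and Schwann cells, was the scarcest of the 10 genes per length, with 18 to 54 reads per library. It had 3.00, 1.97 and 2.69 CPM in f/f and 2.02, 1.31, 1.05 and 1.52 CPM in the controls. The only crossing was control 1, just above f/f 2. Means ± SD were 2.56 ± 0.526 CPM in f/f and 1.48 ± 0.409 CPM in the controls (n = 3 and 4). Egr2 differed by 0.78 ± 0.30, with an unadjusted p of 0.0289 and an adjusted p of 0.511 in edgeR, and an exact permutation p of 0.0857. With each library left out in turn the difference ran from 0.66 to 0.97, and the unadjusted p was under 0.05 in 3 of these 7 fits.

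Atf3, a stress-induced factor of the ATF/CREB family, showed no separation. Atf3 (chromosome 1, 191170296 to 191183333) had 9.17, 3.67 and 8.06 CPM in f/f and 8.03, 4.45, 4.57 and 5.65 CPM in the controls. Libraries f/f 1 and f/f 3 were above all controls and f/f 2 was below all of them. The difference was 0.30 ± 0.35 (edgeR adjusted p = 0.710), 0.05 without f/f 1 and 0.61 without f/f 2.

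Nr4a1, an orphan nuclear receptor also called Nur77, had a different pattern over the libraries. Nr4a1 (chromosome 15, 101253902 to 101274795) had 92.0, 43.5 and 57.4 CPM in f/f and 31.5, 29.1, 81.8 and 28.9 CPM in the controls. Each f/f library was above controls 1, 2 and 4, and control 3 was above f/f 2 and f/f 3. With all libraries the difference was 0.59 ± 0.42 (edgeR adjusted p = 0.571, exact permutation p = 0.229), and it was 0.24 without f/f 1. Without control 3 it was 1.11, with an unadjusted p of 0.00343 and an adjusted p of 0.245 in edgeR. In the shared parent cross, f/f 3 lay below control 3. With the cross as a block, which compares only this pair, the difference was -0.51.

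Ier2 and Dusp1 were the 2 genes with lower fitted levels in f/f. Ier2 (chromosome 8, 84661331 to 84662852), a small nuclear protein induced by growth factors, had 30.4, 24.5 and 27.6 CPM in f/f and 42.8, 27.7, 28.0 and 47.6 CPM in the controls. Controls 1 and 4 lay above the other 5 libraries, which were close together. Ier2 differed by -0.41 ± 0.23 (edgeR adjusted p = 0.524). Dusp1 (chromosome 17, 26505591 to 26508472), the phosphatase that switches off MAP kinases and is also a glucocorticoid target, had 68.6, 43.3 and 44.9 CPM in f/f and 95.7, 54.8, 58.2 and 49.8 CPM in the controls. Control 1 was highest, and f/f 2 and f/f 3 were below all controls. Dusp1 differed by -0.31 ± 0.27 (edgeR adjusted p = 0.637), and by -0.05 without control 1.

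**Figure D2:**
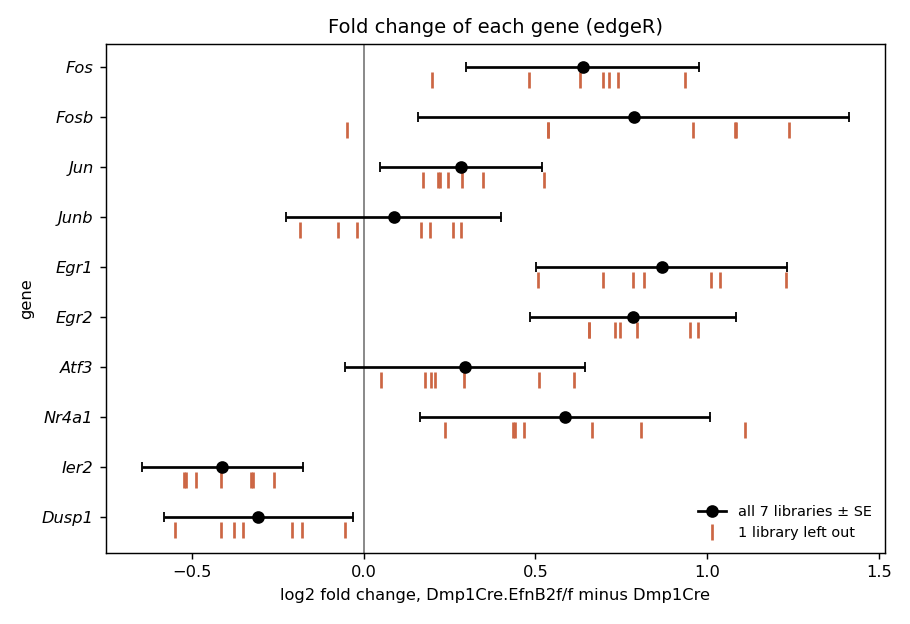
Log2 fold change of each gene, Dmp1Cre.EfnB2f/f minus Dmp1Cre (x axis), from edgeR with all 7 libraries (points, with the standard error as bars) and with 1 library left out at a time (ticks). Fos, Jun, Egr1, Egr2, Atf3 and Nr4a1 stay above 0 in every fit, Ier2 and Dusp1 stay below it, and Fosb and Junb cross it.

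Many of the genes were high or low together in single mice. Library f/f 1 had the highest level of 6 of the 10 genes (Fos, Junb, Egr1, Egr2, Atf3 and Nr4a1), and the 10 genes summed to 486 CPM there. In control 1, 9 of the 10 genes lay above their mean over the libraries, Jun and Dusp1 were the highest of all, and the sum was 407 CPM. At the other end was control 2, with 228 CPM, in which all 10 genes lay below their mean and 4 were the lowest of the 7. The remaining libraries summed to 293 CPM (f/f 2), 331 CPM (f/f 3), 326 CPM (control 3) and 306 CPM (control 4). The mean deviation of the 10 genes ran from -0.56 in control 2 to 0.50 in f/f 1 on the log2 scale, while the median deviation of all genes lay between -0.03 and 0.02. In the only cross with both genotypes, 7 of the 10 genes were higher in f/f 3 than in control 3 and 3 were lower (Nr4a1, Ier2 and Dusp1). With the cross as a block, the genotype difference rests on this pair alone, 1 mouse against 1. It is therefore not a separate estimate. Fosb differed by 2.93 in that fit, Egr2 by 1.35, Atf3 by 0.82 and Fos by 0.25.

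**Figure D3:**
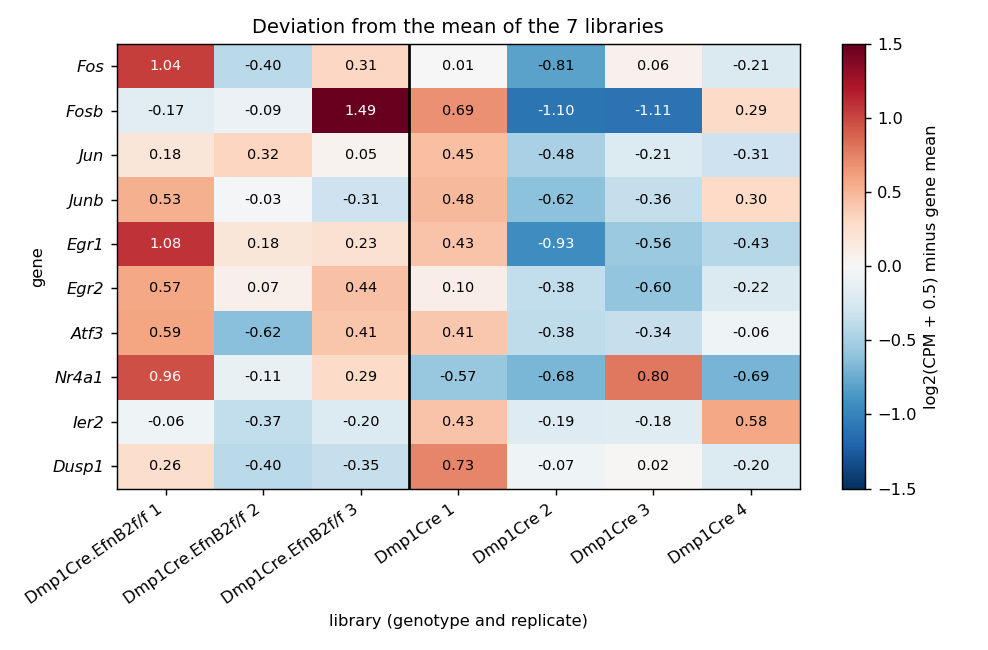
Deviation of each gene (rows) in each library (columns) from its mean over the 7 libraries, in log2(CPM + 0.5), red above and blue below, with f/f to the left of the line. Control 2 is blue for all 10 genes, f/f 1 and control 1 are mostly red, and the Fosb and Nr4a1 rows run apart from the others.

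The number of the 10 genes with an unadjusted p under 0.05 varied with the library left out, as did the share of all genes. It was 0 without f/f 1 (2.84% of all genes) and without control 2 (10.8%). It was 3 without f/f 2 (3.88%) and without control 1 (11.3%). It was 1 without f/f 3 (8.99%), control 3 (15.8%) or control 4 (6.38%). No single removal brought any of the 10 genes past an adjusted p of 0.05. Without f/f 1 the median difference over the 10 genes was 0.22 and without f/f 2 it was 0.71, against 0.44 with all libraries.

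The mean profile of the 10 genes was close to that of some genes and not of others. Likeness was measured as the root mean square difference between centred log2 profiles over the 7 libraries, for 14448 genes of at least 1 CPM, whose median difference was 0.452. Of the 10 genes, Egr2 (0.212), Atf3 (0.214), Jun (0.245) and Junb (0.270) were nearest to the mean profile, although each takes part in that mean. They ranked only 172, 181, 374 and 669 among the genes compared. Fos (0.2999) followed, and Egr1 (0.339) was about as far from the mean profile as a flat profile (0.341). In all, 2319 genes were closer to the mean profile than a flat profile was. Dusp1 (0.373), Ier2 (0.408), Nr4a1 (0.592) and Fosb (0.691) were farther than a flat profile, and the last pair also farther than the median gene. Among the nearest genes outside the list were Adamtsl5 (0.112), Rhobtb1 (0.122), Avpi1 (0.128), Nos3 (0.134), P2ry2 (0.134), Hoxb3 (0.136) and Kyat3 (0.138). None of these was on any of the gene lists used. Nos3, the endothelial nitric oxide synthase, had 14.8, 11.9 and 12.0 CPM in f/f and 12.7, 7.30, 8.20 and 9.24 CPM in the controls.

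The wider early response showed 0 of 85 tested genes with an adjusted p under 0.05 in edgeR, with 6 at an unadjusted p under 0.05 (4 higher, 2 lower), or 7.06% against 9.66% of all genes, and 1 called by DESeq2. Their median log2 fold change was 0.01, and 43 were higher and 42 lower. Among relatives of the AP-1, EGR and NR4A genes, 9 of 11 were tested, 2 higher and 7 lower, with a median of -0.21. Fosl1 and Egr4 had at most 3 reads in any library and were not tested.

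The 2 with higher levels were the other NR4A receptors. Nr4a2 (Nurr1) had 9.62, 3.62 and 4.38 CPM in f/f and 2.75, 2.05, 2.64 and 2.61 CPM in the controls, so that every f/f library was above every control. The difference was 1.22 ± 0.35 (edgeR unadjusted p = 0.00756, adjusted p = 0.511), and 0.67 without f/f 1. Nr4a3 (Nor1) had 3.84, 1.371 and 1.423 CPM in f/f and 0.8804, 1.141, 1.405 and 0.4347 CPM in the controls, where control 3 reached the range of f/f. Nr4a3 differed by 1.19 ± 0.49 (edgeR adjusted p = 0.511), and by 0.54 without f/f 1. All 3 NR4A genes were highest in f/f 1.

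Other primary response genes, 35 in all, had a median log2 fold change of 0.08, with 20 higher and 15 lower. Plk2, a polo-like kinase, had 27.9, 15.8 and 17.8 CPM in f/f and 11.4, 9.30, 11.4 and 9.89 CPM in the controls, with no overlap. Plk2 differed by 0.97 ± 0.23 (edgeR unadjusted p = 0.00232, adjusted p = 0.511). Cebpb, a factor of granulocyte, fat and bone cells, had 35.2, 30.4 and 25.3 CPM in f/f and 65.3, 42.3, 33.6 and 40.0 CPM in the controls. Control 3 lay below f/f 1, and the difference was -0.58 ± 0.25 (edgeR adjusted p = 0.511).

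Genes upstream of the immediate early genes were close to even, with 11 of 21 higher and a median of 0.01. Mkl2, a cofactor of SRF, differed by 0.43 ± 0.16 (unadjusted p = 0.0268), and Rps6ka1, a kinase below ERK, by -0.73 ± 0.25 (unadjusted p = 0.0184), each with an adjusted p of 0.511 in edgeR. The MAP kinase phosphatases related to Dusp1 had 4 of 8 higher and a median of -0.0045, with Dusp10 at 0.48 (adjusted p = 0.517) and Dusp8 at -0.36 (adjusted p = 0.533). The heat shock genes, induced by stress, had 6 of 12 higher and a median of 0.0039, with Bag3 at 0.55 (adjusted p = 0.516) and Dnajb1 at -0.55 (adjusted p = 0.517). In both of these lists 0 genes reached an unadjusted p under 0.05.

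**Figure D4:**
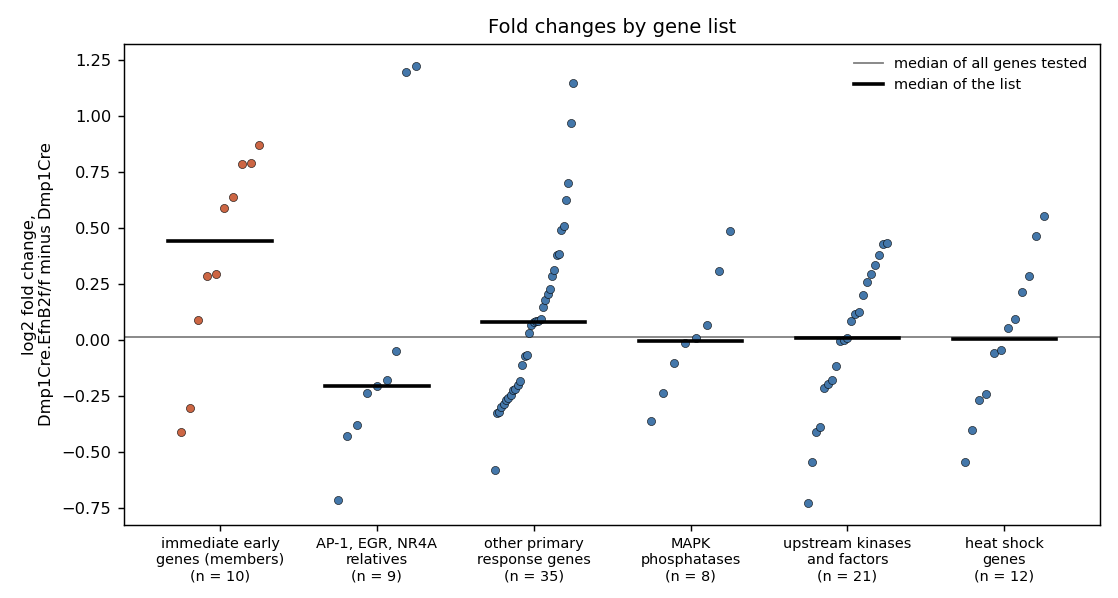
Log2 fold changes, Dmp1Cre.EfnB2f/f minus Dmp1Cre (y axis), of the genes of each list (x axis), each point a gene and the black line the median of its list. The grey line is the median of all 15098 genes tested (0.01). The list medians run from -0.21 for the AP-1, EGR and NR4A relatives to 0.44 for the immediate early genes, whose median is 0.22 without f/f 1.

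The libraries also differed in the RNA of cell type markers. Markers of osteoblasts and osteocytes were present throughout (10 of 10 with counts), with a sum of 15070 to 24680 CPM in f/f and 14410 to 71990 CPM in the controls, highest in control 1. Skeletal muscle markers summed to 28400 to 41980 CPM in f/f and 13430 to 29980 CPM in the controls, and 10 of 10 were higher in f/f. Erythroid, granulocyte and monocyte markers had lower sums in f/f, of 9125 to 17750 against 20210 to 56490 CPM for 8 erythroid genes, 13060 to 16310 against 18710 to 22030 CPM for 10 granulocyte genes and 2288 to 2933 against 3112 to 4325 CPM for 10 monocyte and macrophage genes. Of these, 0 of 8, 0 of 10 and 1 of 10 were higher in f/f. Endothelial markers were 7 of 8 higher, with 544 to 657 CPM in f/f and 415 to 561 CPM in the controls, and smooth muscle markers 6 of 6 higher, with 134 to 191 CPM against 58.0 to 155 CPM. In these lists the unadjusted p was under 0.05 for 4 muscle, 5 erythroid, 3 granulocyte, 3 monocyte, 3 endothelial and 2 smooth muscle genes, and 0 passed the adjusted threshold. It was under 0.05 for 0 genes of the osteoblast and osteocyte, B cell, megakaryocyte, osteoclast and adipocyte lists. Over all genes tested, 9.66% reached that p. The muscle, endothelial and smooth muscle sums overlapped between the groups, and the erythroid, granulocyte and monocyte sums did not. Among single genes, 11.3% of all tested had groups that did not overlap. B cell markers were higher in f/f for 8 of 10 genes, with overlapping sums of 378 to 434 and 285 to 441 CPM. Sums for megakaryocytes, osteoclasts and adipocytes overlapped. Endothelial and smooth muscle markers were highest in f/f 1. In the controls, endothelial markers were lowest in control 2 (415 CPM) and highest in control 4 (561 CPM). Smooth muscle markers were lowest in control 4 (58.0 CPM) and highest in control 1 (155 CPM). Every marker found had counts in some library. The part of these cell types in the levels of the immediate early genes was not tested, and in whole tissue fewer cells of a type and less RNA per cell cannot be told apart.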

How the data were processed

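RNA from flushed femora was sequenced in 3 Dmp1Cre.EfnB2f/f and 4 Dmp1Cre mice. The authors mapped paired reads to mm10 with Rsubread, and the deposited values are raw featureCounts counts per Entrez gene, without normalization, filtering or pooling (bcl2fastq 2.17.1.14 per the submitters' processing notes; strand setting not given in the sources used here). The series table and the single files held the same counts in all 7 libraries. A level of 0.65 CPM or more in 3 or more libraries was required (16302 genes), and the gene classes removed in the study were left out, which left 15098. These were tested in R 4.3.3 with edgeR 4.0.16 (TMM, robust quasi-likelihood, Benjamini-Hochberg adjustment over all genes, threshold 0.05). Standard errors are the log2 fold change over the square root of F. CPM values use TMM library sizes. The study's day block was not in the labels. Single values were compared by exact permutation over 35 assignments (smallest p 0.0286), with log2(CPM + 0.5). Pairs of libraries within a genotype differed by more than sampling noise (chi-square per degree of freedom 28.9 to 226). Alternatives were DESeq2 1.42.0, the study's limma pipeline (limma 3.58.1, prior count 2), limma-voom, other scalings, filters, blocks and left-out libraries. The tests were tried on simulated counts. The members, gene lists and tests were chosen with earlier results of these data known. The genes named are the 10 members, Efnb2, up to 2 genes of lowest p in each list and the 8 genes nearest in pattern, of which not all are reported here. Positions are from RefSeq on GRCm38.p6.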

Additional observations from a re-analysis of the deposited data

Results flagged for a closer look

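One control stood apart from the other 3 for Nr4a1. Control 3 had 81.8 CPM against 28.9 to 31.5 CPM in the other controls, and its gap to the nearest of them was 0.949 of the range of the controls, above Dixon's critical value for 4 samples. Chance alone gives such a gap in about 1 of 20 groups, or 0.55 of the 11 genes examined. Groups of 3 were not examined.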

How the results depend on the processing

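The count of genes past the threshold over all 15098 genes was 0 with edgeR and moved to 72 with DESeq2, 58 with limma-voom, 2246 with the limma pipeline without the day, up to 4929 with a day block, 1 with the replicate number as a block, and 0 to 2 with single libraries left out. Among the 10 immediate early genes it moved from 0 to 2 with the limma pipeline without the day and to as many as 7 with a day block, and in the 85 related genes from 0 to 1 with DESeq2, 1 with limma-voom, 12 with the limma pipeline without the day and up to 30 with a day block. The highest counts came with f/f 3 and control 4 as the mice of day 2. The day of each library was not inferred. With scaling by library size only, 1 of the 10 genes had groups that did not overlap, against 0, where 11.3% of all genes did so under either scaling. With a pseudocount of 2, 4 of the 8 genes nearest in pattern were shared with those at 0.5.

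Efnb2 kept its direction and passed the threshold with DESeq2 (log2 fold change 0.94), the limma pipeline without the day (0.76) and the highest day block (1.1354). Signs reversed for Atf3 with the limma pipeline without the day (-0.20) and with several of the day blocks (lowest -0.49). Dusp1 reversed with some of the day blocks (highest 0.21). Nr4a1 reversed with the lowest day block (-0.0681) and with the cross as a block (-0.51), where only f/f 3 and control 3 are compared. With single libraries left out, Fosb ran from -0.0479 (without f/f 3) to 1.24, and Junb from -0.18 to 0.28. Fosb differed by 2.93 with the cross as a block, again f/f 3 against control 3 only. The cause was not tested. The signs of Fos, Jun, Egr1, Egr2 and Ier2 held in all alternatives run. The replicate numbers did not pair the libraries (correlation of deviations across genes -0.147, 0.0712 and -0.438), and with the number as a block 0 of the 10 genes passed the threshold. Among the 10 genes, read counts were lowest for Egr2, at 18 to 54 per library.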
